A study of Mus musculus with 12 samples.

Results

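A set of 10 cytokine genes were followed across the activation of splenic CD8 T cells, namely Ifng, Tnf, Lta, Il2, Csf2, Il6, Il10, Il1b, Il12b and Il15. Members were chosen by their symbols as effector and inflammatory cytokines, and are 10 of the 20778 genes of the count table. CD8 positive T cells were taken from spleens of C57BL/6 mice (6 weeks of age by the labels) with magnetic beads and were kept in culture for 6 hours. The Naïve group was cultured without a stimulus, the αCD3 group with an antibody to CD3 at 1 µg/ml, the IFNγ group with interferon gamma at 70 ng/ml, and the LPS group with bacterial lipopolysaccharide at 1 µg/ml. Each of the 4 groups had 3 mRNA libraries, 12 in all, and all groups shared the strain, the tissue, the isolation and the culture time. The dose unit of αCD3 and LPS is uncertain, since the labels state it both as µg/ml and as mg/ml, and so is the age, since older mice are named in the methods of the study. In the methods of the study the default T cell culture held recombinant IL-2 on plates coated with an antibody to CD3, unless stated otherwise, and whether that default applied to these cultures, the Naïve ones included, is not given in the sources used here. Nor is it given whether the libraries of a group came from separate mice, so the p-values measure only the spread between these libraries.

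Cytokines are secreted proteins by which immune cells instruct each other. CD3 carries the signal of the T cell receptor, and in CD8 T cells that signal is known to switch on Ifng, Tnf, Lta, Il2 and Csf2 within hours. LPS is sensed by Toll-like receptor 4, which is best known from macrophages, dendritic cells and B cells, and there it drives Il1b, Il6, Il10, Il12b and Tnf. IFNγ is sensed by a receptor present on most cells, and it raises the genes of antigen presentation and the Il15 gene in many cell types.

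Promoters of 5 of the cytokines are shown because NF-κB, AP-1 and NFAT, through which such signals are classically read, act at cytokine promoters, and the sequences differ in which of the searched letters they hold. Each is the 250 bases before the transcription start (RefSeq, GRCm38.p6), written 5′ to 3′ on the strand of the gene, with capitals marking TATAAA, the AP-1 letters TGANTCA and a strict NF-κB motif, which is GGGA and TTCC with any 2 bases between them. They lie at chr10:118440796-118441045 for Ifng (+ strand), chr17:35202008-35202257 for Tnf (- strand), chr3:37125955-37126204 for Il2 (- strand), chr5:30012864-30013113 for Il6 (+ strand) and chr2:129371140-129371389 for Il1b (- strand).
Ifng: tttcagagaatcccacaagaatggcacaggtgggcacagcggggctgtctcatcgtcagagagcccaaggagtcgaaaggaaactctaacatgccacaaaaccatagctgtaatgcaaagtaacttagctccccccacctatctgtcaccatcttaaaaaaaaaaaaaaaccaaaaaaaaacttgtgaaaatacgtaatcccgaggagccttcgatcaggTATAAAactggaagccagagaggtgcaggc
Tnf: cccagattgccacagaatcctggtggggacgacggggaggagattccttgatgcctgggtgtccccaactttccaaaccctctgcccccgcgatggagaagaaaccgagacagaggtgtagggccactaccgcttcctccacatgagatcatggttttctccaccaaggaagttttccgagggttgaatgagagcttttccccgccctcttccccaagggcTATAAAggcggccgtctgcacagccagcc
Il2: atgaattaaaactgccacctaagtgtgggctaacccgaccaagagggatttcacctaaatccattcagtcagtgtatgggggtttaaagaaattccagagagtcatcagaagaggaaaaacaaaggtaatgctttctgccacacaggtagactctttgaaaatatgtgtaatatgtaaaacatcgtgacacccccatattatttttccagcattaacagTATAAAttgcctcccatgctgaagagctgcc
Il6: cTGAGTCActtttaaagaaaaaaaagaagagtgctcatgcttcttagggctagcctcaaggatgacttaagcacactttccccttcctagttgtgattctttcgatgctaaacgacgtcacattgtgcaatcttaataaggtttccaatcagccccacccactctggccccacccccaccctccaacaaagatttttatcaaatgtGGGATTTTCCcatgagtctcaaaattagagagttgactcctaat
Il1b: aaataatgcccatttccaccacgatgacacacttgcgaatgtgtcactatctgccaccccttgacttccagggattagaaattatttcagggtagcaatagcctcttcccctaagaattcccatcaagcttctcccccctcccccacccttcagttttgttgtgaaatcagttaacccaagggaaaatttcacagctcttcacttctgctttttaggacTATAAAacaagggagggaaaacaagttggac

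RefSeq promoters matched 8 of the 10 symbols, all but Il10 and Il15, and motifs were counted over 300 bases, from 250 before to 50 after the start, in the same way in 32851 promoters. TATAAA on the strand of the gene was present in 5 of the 8 (Ifng, Tnf, Lta, Il2 and Il1b) and in 8.32% of all promoters. Its first base lay at position -30 in Ifng, -29 in Tnf, -31 in Il2 and -31 in Il1b, counted backwards from the start, but at -167 in Lta, far from the usual place of a TATA box. The Csf2 window was built on a RefSeq start that lies upstream of the gene annotated in GENCODE, so its matches belong to that start. The calcineurin-dependent factor NFAT has the core TGGAAA, and on either strand it was found in 6 of the 8 (all but Ifng and Lta) and in 21.4% of all promoters, with no overlap with the other motifs in these 6. Il6 alone of the 8 held the strict NF-κB motif (1.47% of all promoters), as GGGATTTTCC from position -44, and it alone held the AP-1 letters (7.81%), from position -249. A looser NF-κB motif, GGG and CC with any 5 bases between them on either strand, which covers the strict one, was in 5 of the 8 and in 50.8% of all promoters. The interferon-gamma activated site TTCNNNGAA was in Ifng and Lta (8.3% of all promoters). These are matches of letters and not measured binding.

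Library totals ran from 10196248 to 27610175 estimated counts, so that 1 CPM (a count relative to the library size scaled by the trimmed mean of M values) stood for 9.78 to 28.4 counts. Markers of T cells and of other cells were examined first, since LPS acts on several cell types. The defining CD8 T cell genes were present in every library (Cd8b1 284 to 414 CPM), yet 10 B cell markers summed to 3119 to 3398 CPM in Naïve, above the 1462 to 1661 CPM of 9 T cell markers. B cell markers summed to 1837 to 2415 CPM under LPS, 2249 to 2545 CPM under αCD3 and 2784 to 2892 CPM under IFNγ. The T cell sum moved as well, to 1162 to 1337 CPM under LPS, 2212 to 2381 CPM under αCD3 and 1468 to 1614 CPM under IFNγ, so that it exceeded the B cell sum in αCD3 replicates 2 and 3. Of the 9 T cell markers, 6 were lower under LPS and 5 higher under αCD3 (22.3% and 22.9% of all tested genes were so), and their part in the cytokine differences was not tested. The 10 myeloid markers, among them Lyz2, Csf1r and Cd14, summed to 537 to 940.4 CPM in Naïve, 525 to 740 CPM under LPS, 433 to 788 CPM under αCD3 and 594 to 1161 CPM under IFNγ, and none of them was at 0. Of these 10, 1 was higher and 5 were lower than in Naïve under LPS (median log2 difference -0.86), and 1 was higher and 5 were lower under αCD3 (-0.89). Under IFNγ 1 was higher and 1 lower (-0.27). Of all tested genes 26.9% were higher and 22.3% lower under LPS (median -0.01). The shares were 22.9% and 15.7% under αCD3 (-0.02), and 8.17% and 4.27% under IFNγ (-0.02). The one higher under LPS was Cd14, which encodes a co-receptor for LPS, at 22.3, 46.1 and 50.9 CPM in Naïve and 36.6, 99.4 and 127 CPM under LPS (adjusted p = 0.0499), with replicate 1 the lowest as for Il1b. Markers of CD4 T cells (4 genes, 91.1 to 149 CPM), dendritic cells (49.4 to 123 CPM), neutrophils (70.2 to 135 CPM) and NK cells (101 to 290.2 CPM) were lower. The values that follow are therefore levels in bead-isolated spleen cells that held B and myeloid cell transcripts, and in bulk RNA fewer cells of a type and less RNA per cell cannot be told apart.

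**Figure D1:**
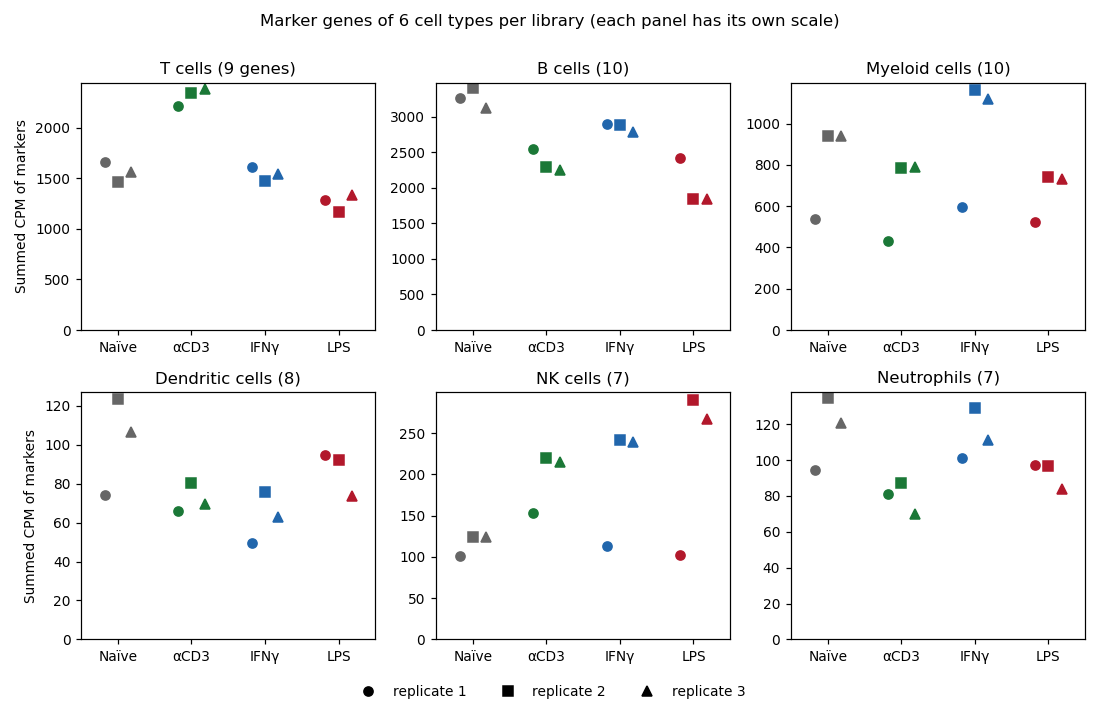
Summed expression in CPM (vertical axes, each panel with its own scale from 0) of marker genes of 6 cell types in each of the 12 libraries, by group on the horizontal axis, with the symbol giving the replicate number. B cell markers exceeded T cell markers in the Naïve libraries, and myeloid and NK cell markers were lowest in replicate 1 of every group.

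The libraries with the number 1 stood apart within their groups. Same-numbered libraries deviated from their group means together (correlations of 0.117 to 0.401), so the replicate numbers were taken to pair the libraries, and a fit with the number as a block is given where it changes a call. The LPS library of replicate 1 had the lowest correlation with a library of its own group (Pearson r of 0.967 with replicate 2, across genes). Cytokine results that rest on it are given with and without it, and the LPS calls of the other genes named below held without it.

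All 10 cytokines passed the low-count filter (12122 of 20778 genes did). LPS raised 6 of them against Naïve (Ifng, Tnf, Lta, Il6, Il10 and Il1b), αCD3 raised 2 (Tnf and Lta), and IFNγ raised 1 (Tnf), at an adjusted p under 0.05 by the edgeR quasi-likelihood test over all tested genes. Of all tested genes, 49.3% passed under LPS (26.9% higher and 22.3% lower), 38.6% under αCD3 (22.9% higher and 15.7% lower) and 12.4% under IFNγ (8.17% higher and 4.27% lower). Tnf passed in all 3 comparisons, and Il2 passed in none of the 6 pairs of groups. With the replicate block the counts in either direction were 7 under LPS, all higher (59.5% of all tested genes), 5 under αCD3, of which 4 were higher and Il6 was lower (52.4%), and 2 under IFNγ, both higher (24.9%). Without LPS replicate 1 they were 7, 4 and 2 (49.8%, 40.2% and 13.4% of all tested genes), and without replicate 1 of all 4 groups, a fit chosen after seeing the data, 7, 6 and 3 (55.1%, 48.8% and 23.3%). In these 2 fits Il1b was lower than Naïve under αCD3, as it was under IFNγ in the latter, and the other calls were higher. The 3 comparisons share the Naïve libraries, so they are not independent of each other.

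**Figure D2:**
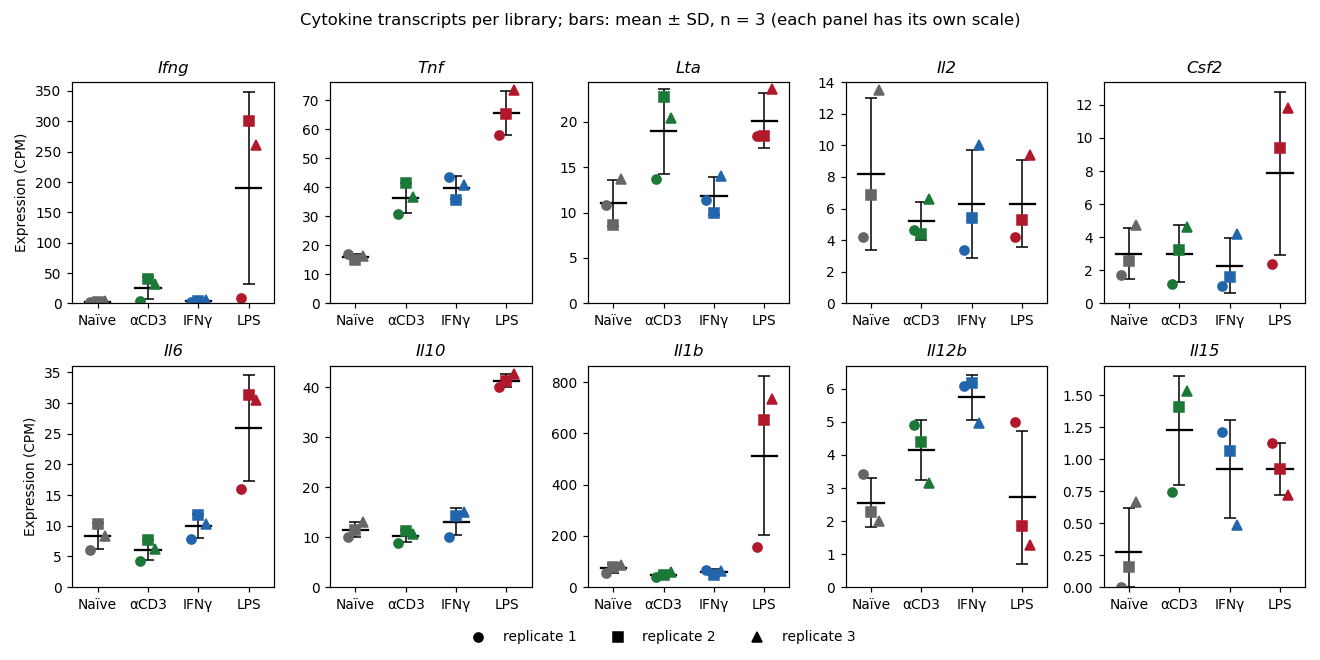
Expression in CPM (vertical axes, each panel with its own scale from 0) of the 10 cytokines in each of the 12 libraries, by group on the horizontal axis, with the symbol giving the replicate number and the bars the mean ± SD (n = 3). Ifng and Il1b spread widely under LPS, with replicate 1 far below the other two, whereas the LPS libraries of Il10 sat between 40.1 and 42.6 CPM.

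**Figure D3:**
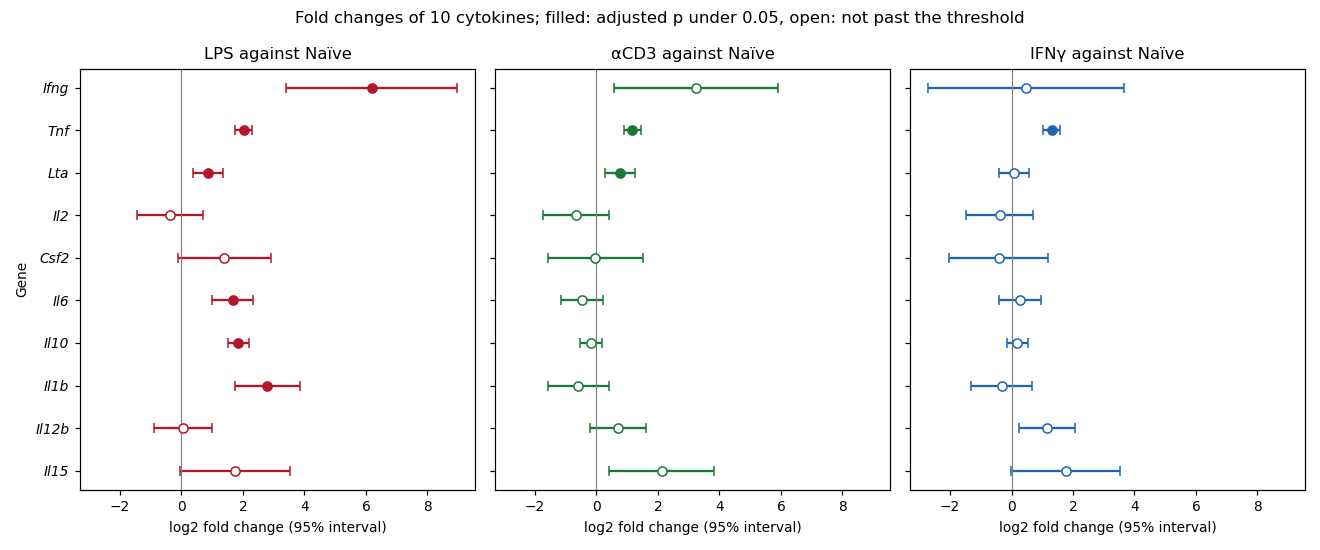
Log2 fold change against Naïve (horizontal axis) of the 10 cytokines (vertical axis) under LPS, αCD3 and IFNγ, with 95% intervals from the edgeR fit; filled points passed an adjusted p of 0.05. Tnf was to the right of 0 in all 3 panels, and the widest intervals were those of Ifng.

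Tnf encodes tumor necrosis factor, a membrane-bound and shed trimer that activates NF-κB in its targets and can kill cells. Tnf was at 17.0, 15.1 and 16.2 CPM in the Naïve libraries, at 30.9, 41.4 and 36.6 CPM under αCD3, at 43.5, 35.5 and 40.7 CPM under IFNγ, and at 58.1, 65.2 and 73.4 CPM under LPS (replicates 1 to 3). No stimulated library overlapped the Naïve range, and no LPS library overlapped another group. The rise against Naïve was 4.07-fold under LPS (log2 2.02 ± 0.13 SE, adjusted p = 2.13e-06), 2.24-fold under αCD3 (1.17 ± 0.13, adjusted p = 6.63e-05) and 2.47-fold under IFNγ (1.31 ± 0.13, adjusted p = 0.000321). Its highest library was at most 1.34 times its lowest in any group. The αCD3 and IFNγ groups overlapped, and the 95% interval of their log2 difference ran from -0.13 to 0.41.

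Lta encodes lymphotoxin alpha, a close relative of TNF made by lymphocytes, and its gene (chr17:35203165-35205351, GRCm38) lies 1157 bases from Tnf (chr17:35199381-35202007) on the same strand. Lta was at 10.9, 8.68 and 13.7 CPM in Naïve, 13.7, 22.7 and 20.4 CPM under αCD3, 11.4, 9.996 and 14.0 CPM under IFNγ, and 18.4, 18.4 and 23.6 CPM under LPS. The LPS libraries lay above all Naïve libraries (log2 0.86 ± 0.22, adjusted p = 0.00855). The αCD3 libraries 2 and 3 did so too, whereas replicate 1 lay inside the Naïve range (0.76 ± 0.22, adjusted p = 0.0200). The αCD3 call was lost when Naïve replicate 1 or 2, or αCD3 replicate 2 or 3, was left out, with an adjusted p of up to 0.0851. IFNγ, which raised the neighbouring Tnf, gave a log2 difference of 0.08 for Lta with an interval from -0.41 to 0.58.

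Ifng encodes interferon gamma, the main antiviral and macrophage-activating product of CD8 T cells and NK cells. It was at 1.80, 2.35 and 3.69 CPM in Naïve (37, 30 and 61 counts), and at 1.94, 3.98 and 5.07 CPM under IFNγ. Under αCD3 it was at 4.34, 40.6 and 31.2 CPM. Under LPS it was at 8.69, 300.2 and 260.4 CPM, which are 85, 3572 and 3238 counts. Replicate 1 was the lowest library in all 4 groups, and under LPS it lay 34.6-fold below replicate 2, although it was still above all Naïve and IFNγ libraries. The LPS call stood with the 3 libraries (log2 6.19 ± 1.25, 73.1-fold, adjusted p = 0.00234) and without LPS replicate 1 (log2 6.75, adjusted p = 0.000164), but it was lost with limma-voom (log2 5.19, adjusted p = 0.0984). The αCD3 libraries did not overlap the Naïve ones either, and the log2 difference of 3.25 ± 1.21 missed the threshold (adjusted p = 0.0550). With the replicate block it passed (log2 3.11, adjusted p = 0.0108), as it did without LPS replicate 1, which enters that comparison only through the shared fit (3.24, adjusted p = 0.00864). For IFNγ against Naïve the interval of the Ifng difference, -2.71 to 3.66, held changes in either direction. Of the 31-base words of the Ifng transcripts (chr10:118441046-118445892), 77.4% were unique in the annotated transcripts, since the annotated gene Gm49751 overlaps it on the same strand, and reads could be divided between them.

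Il2 and Csf2 encode the T cell growth factor interleukin-2 and the granulocyte-macrophage colony-stimulating factor, both classical early products of T cell receptor signalling. Il2 was at 4.19, 6.88 and 13.5 CPM in Naïve, 4.65, 4.38 and 6.60 CPM under αCD3, 3.40, 5.40 and 10.03 CPM under IFNγ, and 4.19, 5.30 and 9.41 CPM under LPS. The ranges of all 4 groups overlapped, and the highest Il2 library of the series was Naïve replicate 3. Under IFNγ Il2 was lower than Naïve in each same-numbered pair. Under LPS it was lower in replicates 2 and 3 and level in replicate 1. Neither difference passed in any fit, the replicate block included (lowest adjusted p of 0.241 for IFNγ and 0.211 for LPS). The αCD3 difference was -0.65 (log2, interval -1.73 to 0.42, adjusted p = 0.312), so that a rise of Il2 beyond 0.42 on the log2 scale lay outside the interval. In the same libraries Il2ra, which encodes the alpha chain of the IL-2 receptor, rose from a mean of 69.9 to 315 CPM. Il2ra was above all Naïve libraries under LPS (309, 584 and 465 CPM) and IFNγ (120, 141 and 139 CPM) as well. Il2 (chr3:37120523-37125959) shares 31-base words with 132 other annotated genes, and 85% of its words were unique.

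Csf2 was at 1.71, 2.58 and 4.72 CPM in Naïve, 1.20, 3.23 and 4.59 CPM under αCD3, 1.05, 1.59 and 4.19 CPM under IFNγ, and 2.35, 9.41 and 11.8 CPM under LPS. Replicates 2 and 3 under LPS were above every other library, whereas replicate 1 was inside the Naïve range. The LPS difference missed the threshold (log2 1.40 ± 0.69, adjusted p = 0.115). It passed with the replicate block (1.28, adjusted p = 0.00170), without LPS replicate 1 (1.83, adjusted p = 0.0350) and without replicate 1 of all 4 groups (1.52, adjusted p = 0.0184). Under αCD3 the interval of the difference, -1.59 to 1.51, was wide. Replicate 3 was the highest library for both Il2 and Csf2 in all 4 groups, a pattern held by 3.13% of all tested genes.

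Il1b encodes interleukin-1 beta, the fever-inducing cytokine that inflammasomes cleave before release. Il1b was at 53.5, 80.0 and 88.1 CPM in Naïve, 41.0, 48.4 and 57.8 CPM under αCD3, 65.8, 47.2 and 64.3 CPM under IFNγ, and 157, 650.4 and 733 CPM under LPS. All LPS libraries were above all others, and replicate 1 lay 4.68-fold below replicate 3. The LPS rise was 6.96-fold (log2 2.80 ± 0.47, adjusted p = 0.000781), and 3.23 on the log2 scale without LPS replicate 1. The differences under αCD3 (log2 -0.59) and IFNγ (-0.32) did not pass, although both passed when replicate 1 of all 4 groups was left out (-0.66, adjusted p = 0.0136, and -0.62, adjusted p = 0.0356), and the αCD3 difference without LPS replicate 1 (-0.59, adjusted p = 0.0413). The antisense gene Il1bos overlaps Il1b (chr2:129364570-129371139), and whether the counting used strand is not given in the sources used here.

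Il6 encodes interleukin-6, which drives the acute phase response and B cell maturation, and its promoter held both the strict NF-κB motif and the AP-1 letters. It was at 6.09, 10.3 and 8.41 CPM in Naïve, 4.30, 7.69 and 6.20 CPM under αCD3, 7.86, 11.8 and 10.3 CPM under IFNγ, and 16.1, 31.4 and 30.6 CPM under LPS. LPS replicate 1 was again the lowest of its group, yet above every library of the other groups. The LPS rise was 3.16-fold (log2 1.66 ± 0.30, adjusted p = 0.00116). Under αCD3 Il6 was lower in each same-numbered pair, and the difference passed only with the replicate block (log2 -0.45, adjusted p = 0.0106, against -0.46 and 0.264 without it).

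Il10 encodes interleukin-10, which restrains inflammatory cytokine production. It was at 10.04, 11.4 and 13.1 CPM in Naïve, 8.85, 11.3 and 10.6 CPM under αCD3, 10.04, 14.2 and 15.1 CPM under IFNγ, and 40.1, 41.2 and 42.6 CPM under LPS. Its LPS libraries were the most even of the 10 cytokines, with a highest library 1.06 times the lowest, and LPS replicate 1 did not stand apart. The rise under LPS was 3.59-fold (log2 1.84 ± 0.16, adjusted p = 8.35e-06), and the interval of the differences under αCD3 (-0.52 to 0.17) and IFNγ (-0.16 to 0.54) excluded a change of that size.

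Il12b encodes the p40 chain shared by interleukin-12 and interleukin-23, a product of dendritic cells and macrophages. It was at 3.41, 2.27 and 2.00 CPM in Naïve, 4.90, 4.38 and 3.14 CPM under αCD3, 6.07, 6.19 and 4.97 CPM under IFNγ, and 5.01, 1.85 and 1.29 CPM under LPS. LPS replicate 1 was its highest LPS library, which of the other cytokines held for Il15 alone. The IFNγ libraries lay above all Naïve libraries, and the difference missed the threshold (log2 1.16 ± 0.41, adjusted p = 0.102) but passed with the replicate block (1.20, adjusted p = 0.0119) and without LPS replicate 1 (1.15, adjusted p = 0.0160). The LPS difference of 0.05 turned to -0.72 without LPS replicate 1 (adjusted p = 0.0858).

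Il15 encodes interleukin-15, which sustains memory CD8 T cells and NK cells. It was the rarest of the cytokines, at 0, 0.16 and 0.67 CPM in Naïve, 0.74, 1.41 and 1.53 CPM under αCD3, 1.21, 1.06 and 0.49 CPM under IFNγ, and 1.12, 0.92 and 0.72 CPM under LPS. The Naïve libraries held 0, 1.76 and 10.5 estimated counts, and no library held more than 21.2. The αCD3 and LPS libraries lay above the Naïve ones, and the differences did not pass (log2 2.12 ± 0.77, adjusted p = 0.0502, and 1.75 ± 0.81, adjusted p = 0.0947). The αCD3 difference passed with the replicate block (2.15, adjusted p = 0.0427). At this depth a fold change of Il15 is poorly determined.

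Between LPS and the other stimuli, every cytokine that passed in the main fit was higher under LPS. Not all 10 had that order. The Il12b means were 2.72 CPM under LPS, 4.14 under αCD3 and 5.74 under IFNγ, and Il15 was at 0.92 CPM under LPS and 1.23 under αCD3. Against LPS, IFNγ was lower for 6 cytokines (Ifng, Tnf, Lta, Il6, Il10 and Il1b) where 40.4% of all tested genes passed (22.4% lower and 18% higher), and αCD3 was lower for 4 (Tnf, Il6, Il10 and Il1b) where 19.4% passed (9.76% lower and 9.64% higher). The differences were between 8.69-fold (Il1b, log2 -3.12 ± 0.48) and 1.64-fold (Tnf, -0.72 ± 0.12) for IFNγ against LPS, apart from Ifng at -5.72 ± 1.24 (adjusted p = 0.00409; with limma-voom -4.76, adjusted p = 0.156). The Lta difference in that comparison (-0.77 ± 0.22, adjusted p = 0.0182) was lost when IFNγ replicate 1 or 2 or LPS replicate 3 was left out. Against αCD3, Il1b was 10.5-fold higher under LPS, Il6 4.36-fold, Il10 4.06-fold and Tnf 1.81-fold. The Ifng difference between αCD3 and LPS missed the threshold (log2 -2.95 ± 1.02, adjusted p = 0.0680), with replicate 1 the lowest library of both groups, and it passed with the replicate block (-2.65, adjusted p = 0.00806) and without LPS replicate 1 (-3.51, adjusted p = 0.00607). With the block, 8 cytokines differed between IFNγ and LPS (52.7% of all tested genes) and 6 between αCD3 and LPS (34.7%), with Csf2 lower in both (-1.77, adjusted p = 0.000350, and -1.36, adjusted p = 0.00277) and Il12b higher under IFNγ than under LPS (1.22, adjusted p = 0.00563). The counts in either direction were also 8 and 6 without LPS replicate 1 (41.1% and 21% of all tested genes), and 8 and 7 without replicate 1 of all 4 groups (47.8% and 29.4%).

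Between IFNγ and αCD3 Lta alone passed (-0.67 ± 0.22, adjusted p = 0.0359), where 37.2% of all tested genes did (21.4% lower and 15.8% higher under IFNγ). That call was lost with limma-voom (adjusted p = 0.0860), in a fit of these groups alone (adjusted p = 0.0556), and when any of 4 libraries was left out. With the replicate block 4 cytokines passed (49.7% of all tested genes), and the 3 added were Ifng, lower under IFNγ (-2.77, adjusted p = 0.0201), and Il6 and Il10, higher under IFNγ (0.73, adjusted p = 0.000679, and 0.35, adjusted p = 0.0228). Without LPS replicate 1 the count was 3 (38% of all tested genes), and without replicate 1 of all 4 groups it was 4 (45.4%).

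**Figure D4:**
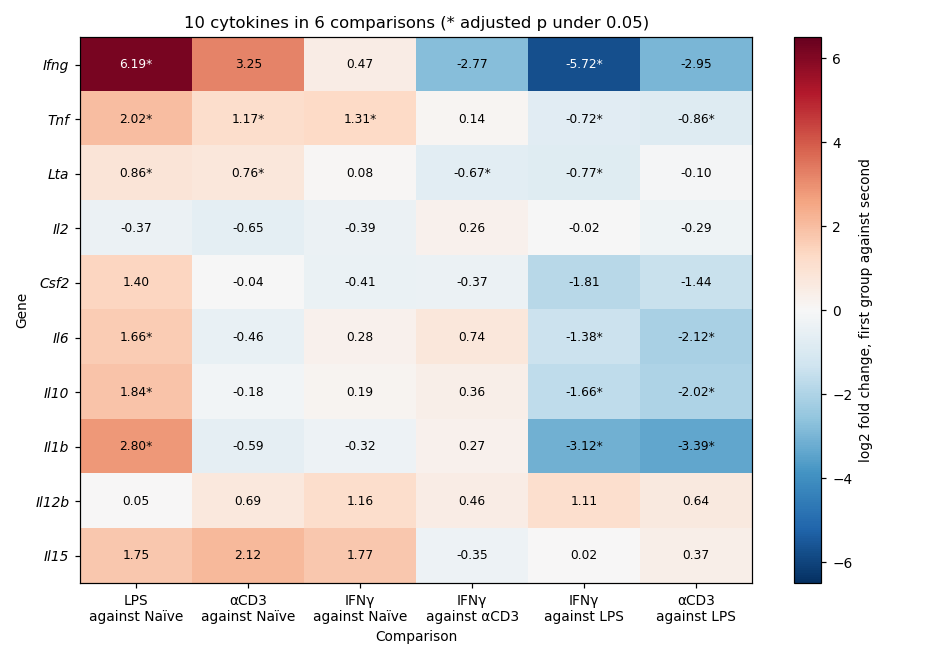
Log2 fold change of the first group against the second (color and printed value) for the 10 cytokines (vertical axis) in the 6 comparisons (horizontal axis), with an asterisk where the edgeR adjusted p was under 0.05. LPS against Naïve held 6 asterisks, IFNγ against αCD3 held 1, and Il2, Csf2, Il12b and Il15 held none.

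Levels were compared between genes per kilobase of the longest annotated transcript. On this scale the Naïve order was Il1b (54.5 CPM per kb), Tnf (9.82), Il10 (8.79), Lta (8.02), Il2 (7.16), Csf2 (3.75), Il6 (3.53), Ifng (2.16), Il12b (1.32) and Il15 (0.144). Under LPS the first places were held by Il1b (379 CPM per kb), Ifng (157), Tnf (40.0), Il10 (31.5) and Lta (14.6), and Il2 was at 5.51. Ifng thus moved from the eighth to the second place by group means, a place carried by replicates 2 and 3. In Naïve the libraries of each neighbouring pair from Tnf to Il12b overlapped on this scale, whereas Il1b lay above and Il15 below all others. Under LPS Il1b, Ifng and Tnf overlapped in turn, and Tnf, Il10 and Lta did not.

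The spread of the cytokines between replicates was set beside that of other genes. Counting genes whose highest library of a group was at least 2-fold above the lowest (on CPM plus 0.5), 5 of the 10 cytokines qualified under LPS, 3 in Naïve, 2 under αCD3 and 3 under IFNγ, against 8.25%, 5.86%, 7.02% and 6.93% of all tested genes. Those in Naïve (Il2, Csf2 and Il15) and under IFNγ (Ifng, Il2 and Csf2) had low group means, of 0.27 to 8.19 CPM. Under LPS they were Ifng, Il1b, Il2, Csf2 and Il12b. The shares of all tested genes were not matched for level, so counting noise was not set apart. Replicate 1 was the lowest library for 8 of the 10 under LPS, 7 in Naïve, 8 under αCD3 and 5 under IFNγ, against 38.5%, 42.9%, 40.3% and 39.8% of all tested genes. Ifng, Csf2, Il6 and Il10 had their lowest level in replicate 1 of all 4 groups, which 15.5% of all tested genes did, and the highest Il6 library was replicate 2 in all 4 groups (5.89%). Il12b went the other way, with its lowest level in replicate 3 of all 4 groups (2.38% of all tested genes).

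Some other genes had the same low replicate. Tbx21, which encodes the T-bet factor that opens the Ifng locus, was at 15.03, 167 and 135 CPM under LPS and at 26.7, 69.0 and 50.7 CPM under αCD3. Its replicate 1 under LPS was thus below all 3 Naïve libraries (15.9 to 23.8 CPM). Under IFNγ Tbx21 was at 64.5, 62.9 and 79.9 CPM, above all Naïve libraries and without a low replicate 1. Ifng was at 1.94 to 5.07 CPM in those IFNγ libraries. Of the 9 tested regulators of Ifng transcription, to which Tbx21 belongs, 5 were lowest in replicate 1 under LPS, whereas Nfatc1 (85.4, 41.6 and 37.6 CPM) and Nfatc2 (28.5, 19.6 and 25.7 CPM) were highest there. Il12rb2, a chain of the interleukin-12 receptor, was at 33.5, 143 and 141 CPM under LPS (log2 2.45 against Naïve, adjusted p = 0.00321, and 2.87, adjusted p = 0.000240, without replicate 1). Under IFNγ, where Ifng did not pass, Il12rb2 was at 87.9, 141 and 147 CPM (log2 2.68 ± 0.53 against Naïve, adjusted p = 0.00836). Of 14 tested IFNγ target genes, 12 were lowest in replicate 1 under LPS, 13 under αCD3, 10 under IFNγ and 11 in Naïve, and their summed level was 3784, 8730.3 and 8082 CPM under LPS and 2265, 4505 and 3698 CPM under αCD3. Among them the GTPase gene Gbp2 (chosen after its values were seen) was at 697, 2100 and 1837 CPM under LPS. When IFNγ itself was supplied, the sums were 10690.3, 11648 and 11629 CPM. Replicate 1 was again the lowest of these sums, and some single targets were further apart than the sum. Examples were Gbp4 (34.3, 98.2 and 107 CPM under IFNγ) and Cxcl9 (199.7, 307 and 301 CPM), both chosen after their values were seen. Others went the other way, with Irf1 (1292, 1102 and 1141 CPM), Gbp3 (431, 417 and 418 CPM) and Ciita highest in replicate 1 under IFNγ. Under LPS Gbp4 was at 52.6, 35.0 and 64.7 CPM, so replicate 1 was not its lowest.

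Markers of some other cell types moved with the replicate number as well. Replicate 1 was the lowest library for 10 of 10 myeloid markers in Naïve, 9 under αCD3, 10 under IFNγ and 9 under LPS, and for 6, 7, 7 and 6 of 7 NK cell markers, whereas it was the lowest for 1, 3, 3 and 1 of 9 T cell markers. Of 4 CD4 T cell markers it was the lowest for 3, 3, 3 and 4, with sums of 91.1, 109.5 and 101 CPM under LPS. Under LPS the myeloid sum was 525, 740 and 729 CPM and the NK cell sum 103, 290.2 and 267 CPM, the latter carried mostly by Gzma (31.8, 176 and 143 CPM) and Eomes, which activated CD8 T cells also express. The receptor gene Ncr1, which defines NK cells, was at 1.2, 6.4 and 4.2 CPM in these libraries. The B cell sum under LPS went the other way (2415, 1845 and 1837 CPM). The part of these cells in the cytokine levels was not tested.

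**Figure D5:**
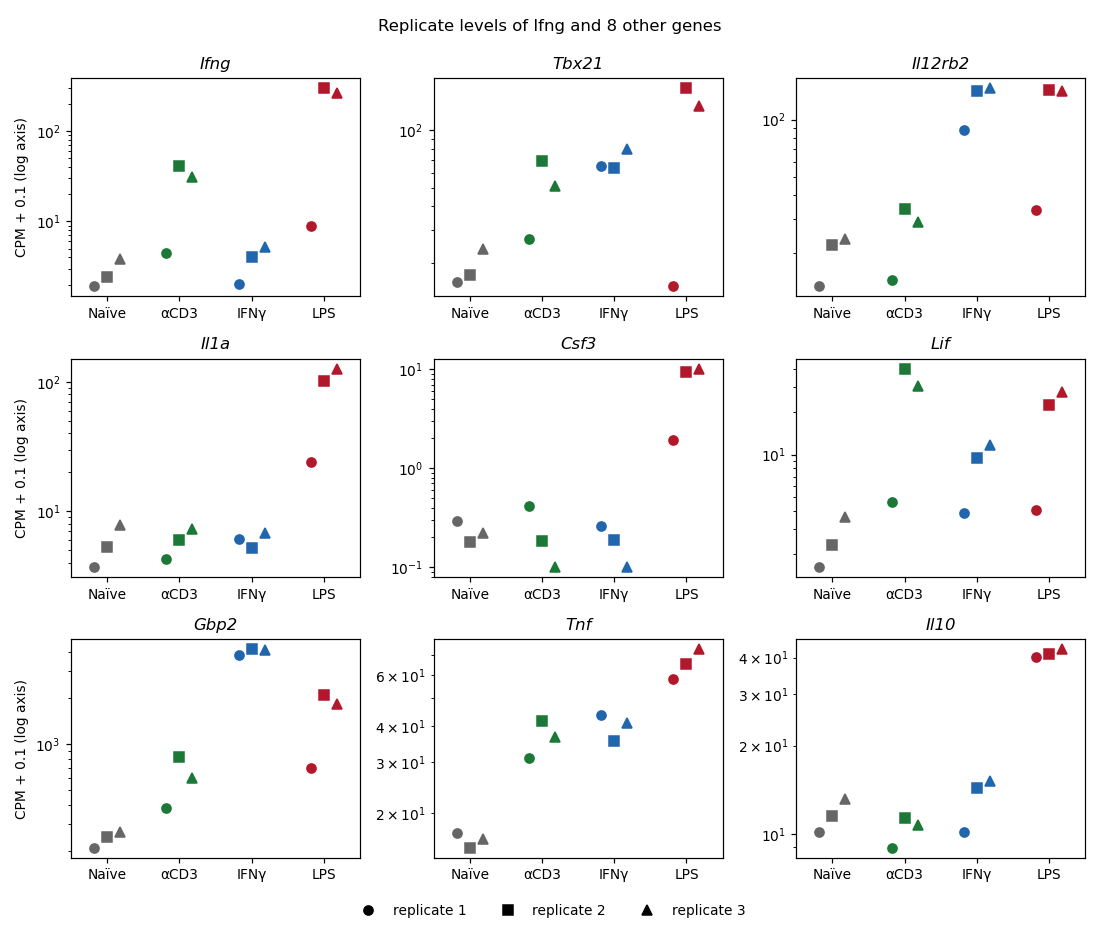
Expression as CPM plus 0.1 (log axes, each panel with its own scale) of Ifng, Tbx21, Il12rb2, Il1a, Csf3, Lif, Gbp2, Tnf and Il10 in each library, by group on the horizontal axis, with the symbol giving the replicate number. Under LPS replicate 1 lay far below replicates 2 and 3 for Ifng, Tbx21, Il12rb2, Il1a, Csf3, Lif and Gbp2, and close to them for Tnf and Il10.

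Of 32 other tested cytokine genes, 15 were higher and 3 lower under LPS (median log2 difference 0.72, against -0.01 over all tested genes), 6 higher and 4 lower under αCD3 (0.05), and 3 higher and 2 lower under IFNγ (0.01). Of all tested genes 26.9% were higher and 22.3% lower under LPS, 22.9% and 15.7% under αCD3, and 8.17% and 4.27% under IFNγ, so the counts under αCD3 and IFNγ were near or below those of all genes. With the replicate block the counts were 18 higher and 3 lower under LPS, 10 and 10 under αCD3, and 6 and 5 under IFNγ (59.5%, 52.4% and 24.9% of all tested genes in either direction). Under IFNγ 5 of 36 tested were higher and 2 lower without LPS replicate 1 (13.4% of all tested genes), and 7 of 35 higher and 2 lower without replicate 1 of all 4 groups (23.3%). Under LPS the largest rises were those of Csf3, the granulocyte growth factor (0.20, 0.08 and 0.12 CPM in Naïve, 1.84, 9.33 and 10.1 CPM under LPS, log2 5.60, and 6.04 without replicate 1), and of Il1a, the sister cytokine of Il1b (3.61, 5.24 and 7.81 CPM against 24.0, 102 and 127 CPM, log2 3.93 ± 0.55, and 4.37 without replicate 1). Replicate 1 was the lowest LPS library for both, as it was for 25 of the 32. Under αCD3 the leukemia inhibitory factor gene Lif (log2 3.37 ± 0.89) and Tnfsf14, which encodes the TNF relative LIGHT (2.26 ± 0.23), rose most, although the Lif call was lost without Naïve replicate 1 (adjusted p = 0.0530) or αCD3 replicate 2 (adjusted p = 0.0501) and with limma-voom (adjusted p = 0.157), and Ltb, the partner of Lta in membrane lymphotoxin, fell by 0.73 on the log2 scale. Under IFNγ Il27 (3.15 ± 0.62) and Tnfsf10, which encodes TRAIL (2.28 ± 0.36), rose most. The largest fall under LPS was that of Tnfsf12 (-2.22 ± 0.45).

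Of 22 receptor genes for the 10 cytokines, 8 rose and 2 fell under LPS, 5 rose and 4 fell under αCD3, and 8 rose and 1 fell under IFNγ. Of all tested genes 49.3%, 38.6% and 12.4% passed in either direction, and those shares were 26.9% higher and 22.3% lower under LPS, 22.9% and 15.7% under αCD3, and 8.17% and 4.27% under IFNγ. The αCD3 counts of the receptors were near these shares, and with the replicate block they were 8 and 8 (52.4% of all tested genes), with 10 and 6 under LPS (59.5%) and 8 and 2 under IFNγ (24.9%). Without replicate 1 of all 4 groups 11 rose and 6 fell under LPS (55.1%), 9 and 10 under αCD3 (48.8%), and 7 and 4 under IFNγ (23.3%). Il2ra rose under LPS (log2 2.70 ± 0.28) and αCD3 (2.17 ± 0.28), and Il12rb1 rose under αCD3 (2.07 ± 0.44) and IFNγ (2.75 ± 0.44). The ligand-binding chain gene of the IFNγ receptor, Ifngr1, fell by 1.37 on the log2 scale under αCD3, from 675, 666 and 658 CPM to 297, 223 and 250.3 CPM. Ifngr2 fell by 0.64 under IFNγ. Il6ra, which encodes the interleukin-6 receptor, fell under αCD3 (-1.09 ± 0.22). Under LPS Ifngr1 (541, 522 and 571 CPM) and Il6ra (39.8, 28.1 and 32.1 CPM) were below all Naïve libraries as well.

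Cytokine mRNAs are short-lived because RNA-binding proteins recognise AU-rich elements or stem-loops in them and control their decay. Of 10 such regulators, 4 rose and 1 fell under LPS, 3 rose and 1 fell under αCD3, and 1 rose under IFNγ, which is near the 49.3%, 38.6% and 12.4% of all tested genes that passed in either direction. With the replicate block 4 rose and 2 fell under LPS (59.5% of all tested genes), 3 and 2 under αCD3 (52.4%), and 2 and 1 under IFNγ (24.9%). Without LPS replicate 1 it was 4 and 2 under LPS (49.8%) and 1 and 1 under IFNγ (13.4%), and without replicate 1 of all 4 groups 3 and 2, 4 and 3, and 3 and 1 (55.1%, 48.8% and 23.3%). Zc3h12a, which encodes Regnase-1, a ribonuclease that cleaves at stem-loops, was at 91.9, 77.0 and 78.1 CPM in Naïve and 216, 163 and 172 CPM under LPS (log2 1.16 ± 0.12), with replicate 1 the highest. Of 8 genes that act on cytokine maturation, release or inhibition, most of them inflammasome genes, 4 rose and 1 fell under LPS, 0 passed under αCD3 (edgeR, 2 at an unadjusted p under 0.05, and 3 called by DESeq2), and 4 rose under IFNγ, against the same 49.3%, 38.6% and 12.4% of all tested genes. With the replicate block 3 rose and 1 fell under αCD3 (52.4% of all tested genes), and without replicate 1 of all 4 groups 2 rose and 1 fell there (48.8%). Under LPS 5 rose and 1 fell with the block (59.5%), and 4 rose and 2 fell without LPS replicate 1 (49.8%). The inflammasome sensor gene Nlrp3 rose under LPS together with Il1b (1.73 ± 0.18; 37.9, 46.0 and 41.9 CPM), and 6 of the 8 genes, Nlrp3 among them, were lowest in replicate 1 under LPS. Il18bp, an inhibitor of interleukin-18, rose under IFNγ (3.46 ± 0.55) and LPS (2.16 ± 0.54).

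Of 9 tested regulators of Ifng transcription, 4 rose and 2 fell under LPS, 1 rose and 3 fell under αCD3, and 1 rose and 1 fell under IFNγ, beside 49.3%, 38.6% and 12.4% of all tested genes in either direction. Under LPS 3 rose and 3 fell without LPS replicate 1 (49.8%). Under αCD3 3 rose and 4 fell both with the replicate block (52.4%) and without LPS replicate 1 (40.2%), and 4 and 4 without replicate 1 of all 4 groups (48.8%). Under IFNγ 2 rose and 1 fell without LPS replicate 1 (13.4%), and 2 rose and 3 fell without replicate 1 of all 4 groups (23.3%). Tbx21 rose under LPS (log2 2.48 ± 0.67, adjusted p = 0.0109, and 2.99, adjusted p = 0.000120, without LPS replicate 1), but not with limma-voom (1.95, adjusted p = 0.0724). Irf8 rose under LPS (1.46 ± 0.32) and IFNγ (1.47 ± 0.32), the latter lost without Naïve replicate 1 or 3 (adjusted p of up to 0.0548). Nfatc1 rose under αCD3 (0.94 ± 0.29), a call lost without replicate 2 or 3 of Naïve or of αCD3 (adjusted p of up to 0.0907). Hlx, which encodes a homeobox factor that works with T-bet, fell in all 3 comparisons (by 1.16, 0.86 and 0.82 under LPS, αCD3 and IFNγ), the last lost without Naïve replicate 2 or 3 or IFNγ replicate 2 and in a fit of those groups alone (adjusted p of up to 0.0795).

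Among 9444 genes that averaged 5 CPM or more, the patterns most like those of 4 cytokines over the 12 libraries were sought by Pearson r of log2 CPM, as a description, since all points share the groups and the replicate numbers. Closest to Ifng were Spag7, Gimap5 and Chek1 (r of 0.96 each). Closest to Tnf were the early activation marker Cd69 (r = 0.97), Amigo3 (0.96) and Rtcb (0.95). Closest to Il6 were Bcl3, an NF-κB cofactor (0.98), Runx3 (0.98) and Sowahc (0.96). Closest to Il2 was Il3 (0.92), which encodes a growth factor of blood cell progenitors made by T cells, followed by Arpc1a and Kif11 (0.89 each). Il3 was at 3.7, 8.1 and 13.6 CPM in Naïve and 2.2, 3.0 and 7.4 CPM under αCD3, so that its highest library, like that of Il2, was Naïve replicate 3.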

How the data were processed

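RNA of bead-isolated splenic CD8 T cells was sequenced in 12 mRNA libraries, and their groups were taken from the labels. Reads were pseudo-aligned by the authors with Kallisto (version and transcript annotation not given in the sources used here) to mm10, and the deposited table holds an estimated count for each gene symbol in each library. The processing notes also name DESeq2 1.24.0, and per the methods the T cell data were TMM-normalised. Reads that match several transcripts are divided by estimation, so genes with shared sequence are less certain. Here counts were rounded and tested with edgeR 4.0.16 in R 4.3.3 (quasi-likelihood F-test with robust estimation, TMM factors, filterByExpr) in a single fit of all 12 libraries with group as its only term, and the 6 pairs of groups were contrasted. P-values are two-sided and were Benjamini-Hochberg adjusted across the 12122 genes tested. The script was checked on simulated counts. Intervals and SE come from the fit, and depth limits genes below about 1 CPM, where a library held 9.78 to 28.4 counts per CPM.

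Replicate numbers were taken to pair the libraries because every same-numbered pair had a correlation of deviations over 0.1 (0.117 to 0.401), a property of the data that no label states. Alternatives were the replicate block, library size alone, DESeq2 1.42.0, limma-voom (limma 3.58.1), no count filter, the compared groups alone, and leaving out each library, and, chosen after seeing the data, leaving out replicate 1 of all 4 groups. All 10 cytokines are named. For Ifng, Tnf, Il2 and Il6 the 3 genes of highest Pearson r are named, and of 5 other lists up to 2 called genes per direction with the largest change and at least 5 CPM in the higher group, not all of which are reported. The genes and lists were chosen with earlier results of these data known. Coordinates and transcript lengths come from GENCODE M21 (GRCm38), and promoters from RefSeq. One gene of a list is not reported here, and that list was counted and summed without it.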

Additional observations from a re-analysis of the deposited data

How the results depend on the processing

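Under the 19 alternatives per comparison, the calls of Tnf, Lta, Il6, Il10 and Il1b for LPS against Naïve and the Tnf calls for αCD3 and IFNγ against Naïve held. Counts of cytokines called moved as follows. For αCD3 against Naïve the count was 5 with the replicate block, 4 with DESeq2 and 6 without replicate 1 of all 4 groups. For IFNγ against Naïve it was 2 with the block, 2 in the fit of those groups alone and 3 without replicate 1 of all groups. For IFNγ against αCD3 it was 4 with the block, 2 with DESeq2, 0 with limma-voom and 0 in the fit of those groups alone (3 each at an unadjusted p under 0.05), and 4 without replicate 1 of all groups, and for αCD3 against LPS it was 7 without replicate 1 of all groups. Leaving out single libraries gave 6 to 7 (LPS against Naïve), 1 to 4 (αCD3), 1 to 2 (IFNγ), 0 to 3 (IFNγ against αCD3), 5 to 8 (IFNγ against LPS) and 4 to 6 (αCD3 against LPS). Without LPS replicate 1 the counts were 7, 4, 2, 3, 8 and 6 in that order. The cause was not tested.

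Values that did not pass turned sign where they lay near 0. Il12b in LPS against Naïve was -0.016 with the block, -0.15 with library size alone, -0.21 with limma-voom and -0.44 without replicate 1 of all groups. Lta in IFNγ against Naïve was -0.055 with library size alone. Il2 in IFNγ against LPS was 0.046 with library size alone, 0.0051 with DESeq2 and 0.041 without replicate 1 of all groups, and Il15 there was -0.035 with limma-voom and -0.094. Without replicate 1 of all groups Csf2 in αCD3 against Naïve was 0.091, Tnf in IFNγ against αCD3 -0.060 and Lta in αCD3 against LPS 0.043. Leaving out single libraries spanned, against Naïve, -0.72 to 0.40 (Il12b, LPS), -0.78 to 0.20 (Il2, LPS), -0.50 to 0.46 (Csf2, αCD3), -0.059 to 0.26 (Lta, IFNγ), -0.90 to 0.18 (Il2, IFNγ) and -1.18 to 0.085 (Csf2, IFNγ). For IFNγ against αCD3 it spanned -0.24 to 0.56 (Il2) and -1.14 to 0.085 (Csf2), for IFNγ against LPS -0.53 to 0.39 (Il2) and -0.23 to 0.31 (Il15), and for αCD3 against LPS -0.25 to 0.098 (Lta) and -0.50 to 0.13 (Il2).

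Among the 10 cytokines the replicate block changed no call beyond those given beside the results, and for the other gene lists its counts are given beside them where they differ. Scaling by library size alone shifted the median log2 difference of all genes by -0.21 for LPS, -0.11 for αCD3 and -0.14 for IFNγ against Naïve, and the share of calls that were higher from 54.7% to 32.8%, 59.3% to 44% and 65.6% to 31.4%; for αCD3 against LPS it went from 49.7% to 68.8%. No cytokine call changed with it.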
